A study of Strongylocentrotus purpuratus with 2 samples.

Results

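Homeobox genes encode transcription factors that bind DNA through a homeodomain, and sea urchin embryos use combinations of them to mark their territories. Hox and ParaHox genes pattern the gut and parts of the ectoderm, NK and related genes mark ectodermal regions, and TALE proteins such as Pbx and Meis are DNA-binding partners of Hox proteins. The transcript models described here are those whose gene name begins with one of these homeobox or Pax family names, with the neuron gene Sp-Nkx6-1 left out. The names were found on 65 rows of the deposited tables and on 56 distinct models of the WHL22 set. Of those, 9 were blank in both libraries and 47 carried a value, out of 12943 models with a value in all. A blank was treated as missing and not as 0.

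The libraries came from whole Strongylocentrotus purpuratus (purple sea urchin) embryos, grown at 15 °C and collected 30 hours after fertilization, with RNA from about 1000 embryos pooled in each. The control library was made from embryos injected with glycerol as fertilized eggs. The other library, labelled SoxC morpholino and called here the SoxC-labelled library, was made from embryos injected with antisense morpholino oligonucleotides against soxC, which encodes a SoxC family transcription factor. There was 1 library per group and no library from embryos given a control morpholino, so effects of the target, of any morpholino and of the individual culture cannot be told apart. No test between the conditions was possible, and every interval below covers counting error only, at the 95% level. In whole embryos, fewer cells of a type and less RNA per cell cannot be told apart.

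The recovered depth was 4414503 reads for the glycerol control and 4763994 for the SoxC-labelled library. A ratio here is the deposited level in the SoxC-labelled library divided by the level in the glycerol control. The median ratio of the 8819 models with a mean of at least 1 CPM, which scales reads to the library total, was 0.866, a log2 value of -0.21, and relative log2 values below have this median subtracted. A model was called higher or lower when its mean was at least 1 CPM, its log2 ratio, with 0.5 reads added to each count, was at least 2-fold and the interval of its ratio excluded 1. By this size rule 4.67% of all models were lower (412) and 0.658% were higher (58). Once that median was set to 0, the shares became 2.35% lower (207) and 1.53% higher (135). The soxC model itself had 4016 and 14959 reads, a ratio of 3.58 (3.46 to 3.71). It was higher by the size rule under the deposited scaling and with that median set to 0. Its ratio was the highest among the 4567 models of 100 reads or more over both libraries. Morpholinos block translation or splicing and need not lower the targeted transcript, so the labels are not checked by this value. The cause of the higher soxC level was not tested. Of 15 territory markers of a whole embryo, 12 had a value and all 12 were above the level floor in these libraries, with relative log2 values from -0.23 to 0.65. The neural marker Sp-ELAV-like was blank, and the gut marker Endo16 and the skeletogenic marker Msp130 gave no value.

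The share of homeobox patterning models that were lower by the size rule was close to that of all models. Of the 47 models, 38 were above the level floor, and 2 of these (5.26%) were lower by the size rule, Sp-Otx and Sp-Xlox, beside 4.67% of all models. None was higher, beside 0.658% of all models. Once the all-model median was set to 0, Sp-Otx alone was lower and again none was higher. The median relative log2 ratio of the 38 was -0.04, and their 25th and 75th percentiles were -0.33 and 0.28, beside -0.28 and 0.26 over all models. Below the all-model median lay 22 of them, and above it 16.

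**Figure D1:**
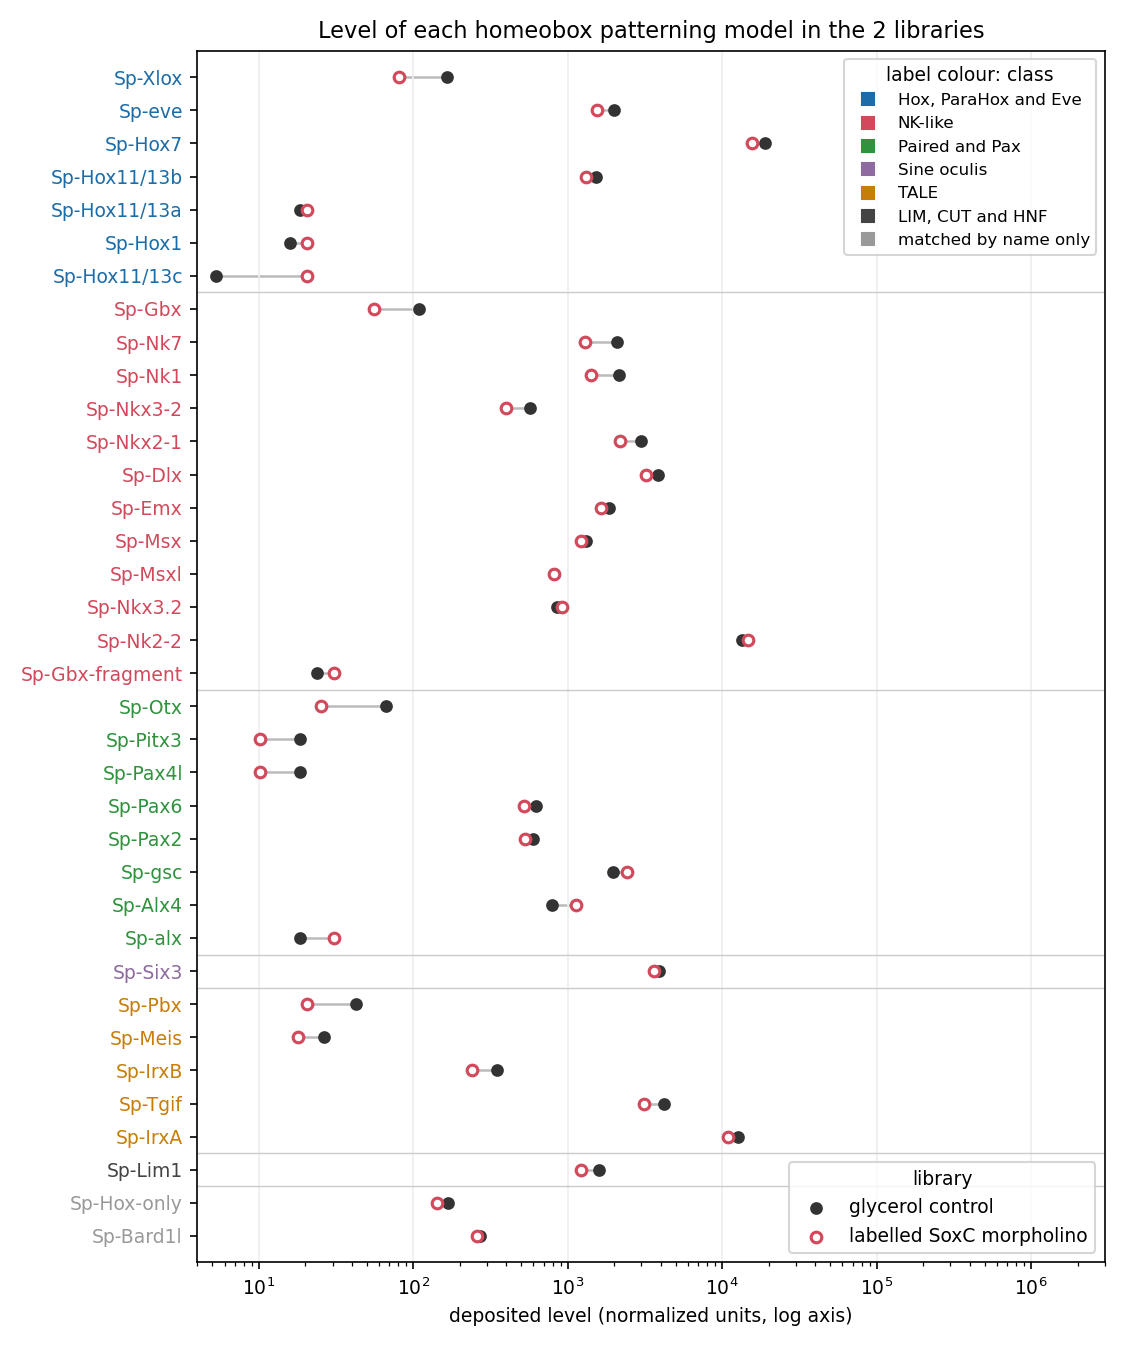
Deposited level in normalized units (log axis) of 36 homeobox patterning models above the level floor, in the glycerol control (filled) and the SoxC-labelled library (open), 1 library each. The paired points lie close together for most models, and the wider gaps are those of Sp-Otx, Sp-Pbx, Sp-Xlox and Sp-Gbx to the left and Sp-Hox11/13c to the right; levels of different genes are not per length and are not to be ranked.

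The models together held 30278 reads in the control, 0.6859% of that library (exact binomial interval 0.6782 to 0.6936). In the SoxC-labelled library they held 27982 reads, or 0.5874% (0.5805 to 0.5943). The most abundant model of all, which has no gene name, took 6.75% of the control reads and 19.6% of the others. With that model left out of both totals, the homeobox share was 0.7355% (0.7273 to 0.7438) in the control and 0.7303% (0.7218 to 0.7389) in the SoxC-labelled library, and the intervals overlapped. Sp-Hox7, Sp-Nk2-2 and Sp-IrxA together made up 55.9% of the homeobox reads in the control, and 58.0% in the SoxC-labelled one. Read numbers of different genes also depend on model length, which was not at hand.

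Among the 25 with at least 100 reads over both libraries, ratios ran from 0.623 to 1.43, and none met the size rule, beside 1.36% lower and 0.197% higher among all 4567 models with that many reads. A count of 0 of 25 is close to those shares. The 25th and 75th percentiles of their relative log2 ratios were -0.17 and 0.14, beside -0.15 and 0.20 over all such models. Intervals of 7 of them (28.0%) lay wholly below the all-model median ratio, where 14.3% of all such models did so. Intervals of 4 (16.0%) lay wholly above it, beside 20.3% of all such models. The homeobox models had a median of 1096 reads and all models of that coverage a median of 428, and more reads give narrower intervals. The difference between these shares was not tested.

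**Figure D2:**
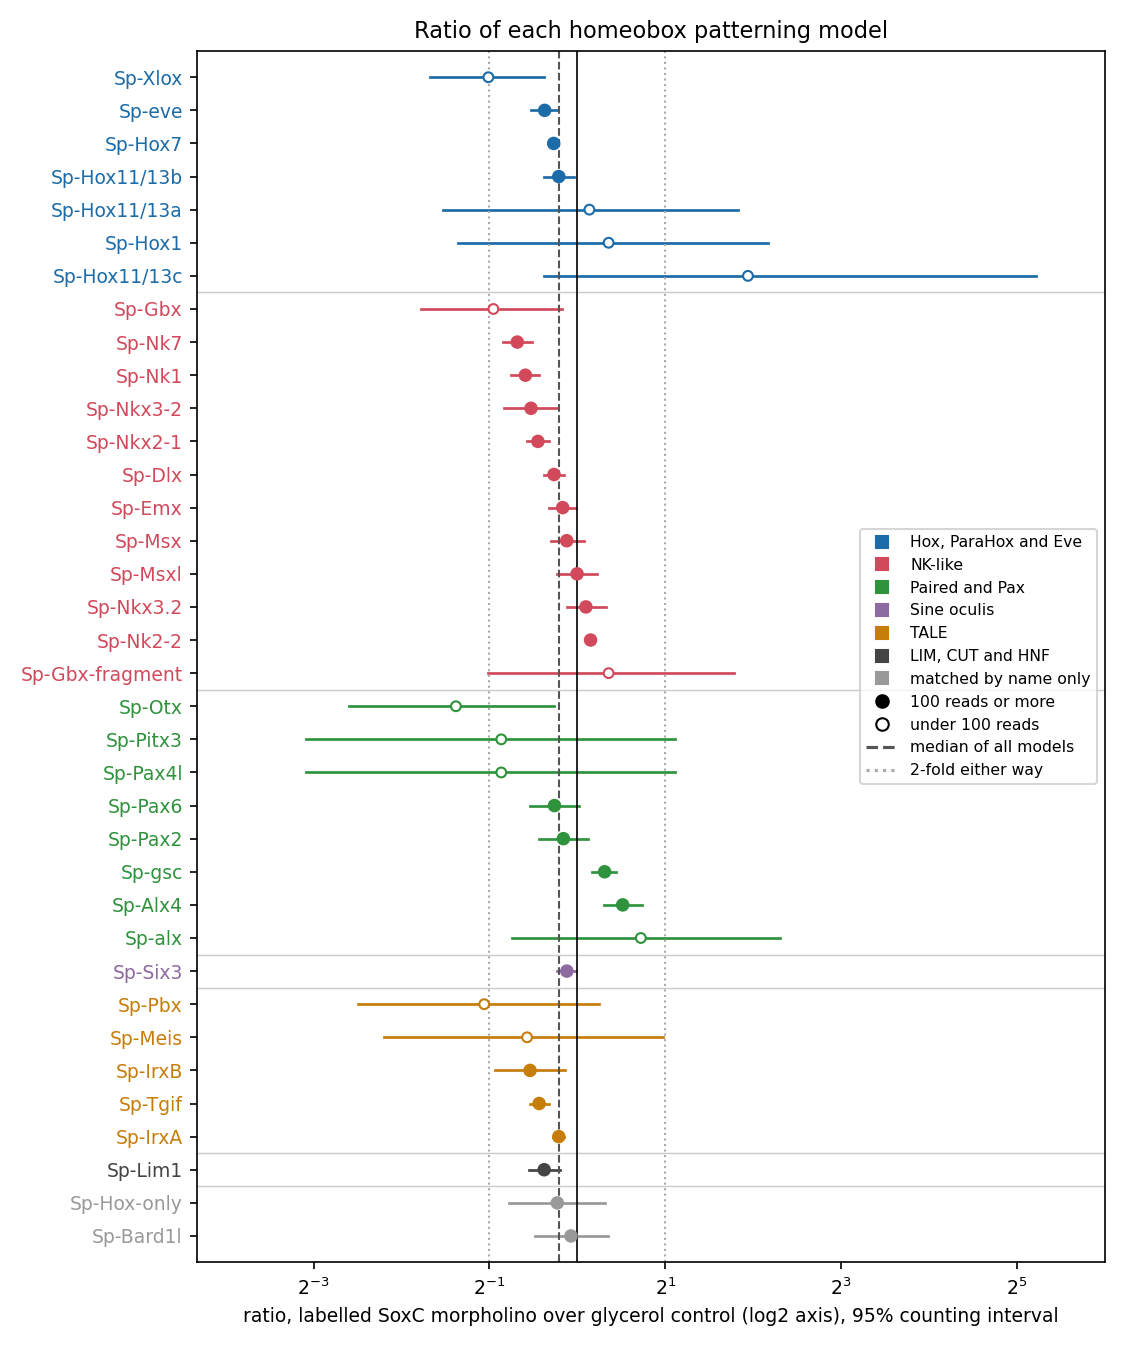
Ratio of the SoxC-labelled library over the glycerol control (log2 axis) for 36 homeobox patterning models above the level floor, with the 95% counting interval; filled points have 100 reads or more. Sp-Otx and Sp-Xlox lie beyond 2-fold with intervals below 1, while the wide intervals of Sp-Pbx and Sp-Hox11/13c include 1.

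In the Hox, ParaHox and Eve class, 7 of 9 models with a value were above the level floor. Of these, 1 was lower by the size rule, beside 4.67% of all models. Sp-Xlox (WHL22.759513.0), the ParaHox gene related to vertebrate Pdx1 and used in the gut, stood at 164.1 normalized units in the control and 81.4 in the SoxC-labelled library. Its ratio was 0.496 (0.313 to 0.772), from 62 and 32 reads. That is 2.02-fold lower, just past the 2-fold limit, and with the all-model median set to 0 Sp-Xlox missed that limit, at a log2 value of -0.79.

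Sp-Hox7 (WHL22.630154.0), a Hox gene of the aboral ectoderm, stood at 18815.4 normalized units against 15608.5 in the SoxC-labelled library. Its ratio was 0.830 (0.802 to 0.859), so it differed from the all-model median by -0.06 on the log2 scale, a small difference that 7107 and 6136 reads set apart from counting error. Sp-Hox11/13b (WHL22.630181.0), a Hox gene of the blastopore and hindgut, stood at 1527.6 and 1320.2 normalized units. Its ratio of 0.864 (0.766 to 0.975) lay close to the all-model median, at a relative log2 value of 0.00.

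Sp-eve (WHL22.442145.0), the even-skipped relative expressed in the vegetal part of the embryo, stood at 1988.2 and 1536.4 normalized units. Its ratio was 0.773 (0.693 to 0.861), with an interval just below the all-model median ratio. The other Hox models were close to absent in both libraries. Sp-Hox1 had 6 and 8 reads, Sp-Hox11/13a 7 and 8, Sp-Hox9/10 4 and 2, and 1 of the Sp-Hox8 models 2 and 1. The model that carries both names Sp-Hox11/13c and Sp-Hox8 had 2 and 8 reads, a ratio of 3.84 with an interval from 0.767 to 37.2, so the direction was not resolved at this depth. Sp-Hox3, Sp-Hox5, Sp-Hox6 and the ParaHox gene Sp-Cdx were blank.

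The NK-like class had 12 models above the floor, none of which met the size rule. Of these, 4 had intervals below the all-model median, 2 had intervals above it and 6 included it. Among all models above the floor, 10.2% had intervals below that median and 12.4% above it. The NK-like models had a median of 1137 reads and all models above the floor 108, and more reads give narrower intervals. Among all models of 100 reads or more, the shares were 14.3% below and 20.3% above. These differences were not tested. Sp-Nk7 (WHL22.567485.0), an NK homeobox gene, was the lowest of the well covered models, at 2086.2 normalized units in the control and 1299.9 in the SoxC-labelled library. Its ratio was 0.623 (0.556 to 0.697), from 788 and 511 reads. Sp-Nk1 (WHL22.152063.0), an ectodermal NK gene, stood at 2141.8 and 1422.0 normalized units, a ratio of 0.664 (0.595 to 0.740). Under the deposited scaling both met a 1.5-fold limit but not the 2-fold one. Relative to the all-model median they were at -0.47 and -0.38 on the log2 scale, and neither reached 1.5-fold.

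Sp-Nkx2-1 and Sp-Nk2-2 belong to the same NK2 family and mark different parts of the ectoderm. Sp-Nkx2-1 (WHL22.739581.0), an apical, anterior neuroectoderm gene, stood at 2975.7 and 2182.6 normalized units, a ratio of 0.733 (0.670 to 0.802). Sp-Nk2-2 (WHL22.739246.0), a gene of the aboral ectoderm, stood at 13353.7 and 14771.6, a ratio of 1.11 (1.07 to 1.15). The former lay below the all-model median and the latter above it. Dividing one ratio by the other removes the scaling, and the pairs compared in this way were chosen after their values were seen. Sp-Nk2-2 over Sp-Nkx2-1 gave 1.51 (exact conditional interval 1.37 to 1.66).

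A contrast was also present between models that carry spellings of one name. Sp-Nkx3-2 (WHL22.329059.0) stood at 571.8 normalized units in the control against 396.8 in the SoxC-labelled one, and Sp-Nkx3.2 (WHL22.339351.1) at 855.1 and 918.3. The first ratio was 0.694 (0.561 to 0.857), and the second was 1.07 (0.922 to 1.25). The ratio of the second to the first was 1.55 (1.19 to 2.01). The tables do not say whether these models are separate genes related to vertebrate Nkx3-2 or pieces of the same gene, and how reads were divided between them is not known.

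The aboral ectoderm genes Sp-Msx and Sp-Dlx lay near the all-model median. Sp-Msx had 498 and 477 reads and a ratio of 0.920 (0.810 to 1.05), and the related Sp-Msxl 308 and 320 reads and a ratio of 0.998 (0.851 to 1.17). Sp-Dlx stood at 3862.6 and 3212.8 normalized units, a ratio of 0.832 (0.771 to 0.897), and Sp-Emx, a relative of the Drosophila head gap gene empty spiracles, at 1847.9 and 1645.8, a ratio of 0.891 (0.799 to 0.993). The intervals of these 4 models include the all-model median ratio. Sp-Gbx, a relative of the vertebrate midbrain and hindbrain boundary gene Gbx2, had 41 and 22 reads, a ratio of 0.516 (0.292 to 0.886) that missed the 2-fold limit. A separate model named Sp-Gbx-fragment had 9 and 12 reads, and the ratio between these models, 2.46 (0.808 to 7.75), did not separate them. Sp-BARH1, Sp-Barx and Sp-Nkx2-5 had at most 1 read in each library, and Sp-Tlx3 was blank.

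The paired and Pax class held both the highest well covered model and the lowest called one. Sp-Otx (WHL22.532435.3), a regulator used in endoderm and ectoderm, stood at 66.2 normalized units in the control and 25.4 in the SoxC-labelled library. Its ratio was 0.384 (0.165 to 0.829), or 2.60-fold lower, from 25 and 10 reads.

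Sp-Alx4 (WHL22.731149.0), a regulator of skeletogenic and other mesoderm cells, stood at 786.3 normalized units in the control and 1126.9 in the SoxC-labelled library. Its ratio was 1.43 (1.23 to 1.67), from 297 and 443 reads, with a relative log2 value of 0.73. Sp-gsc (WHL22.531818.0), the goosecoid repressor of the oral ectoderm, stood at 1953.8 and 2414.0. Its ratio was 1.24 (1.12 to 1.36) and its relative log2 value 0.51. Both intervals lie above 1 as well as above the all-model median. The ratio of Sp-Alx4 over Sp-Nk7, the extremes among the well covered models, was 2.30 (1.90 to 2.78). This pair was picked for its highest and lowest values, a choice that the interval does not allow for.

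The main Sp-Pax6 model, named for the eye and neural regulator, stood at 624.8 and 521.5 normalized units, a ratio of 0.835 (0.689 to 1.01). The model named both Sp-Pax2 and Sp-Pax2-5-8 stood at 593.0 and 531.6, a ratio of 0.896 (0.739 to 1.09). Neither differed from the all-model median beyond counting error. Few reads fell on the rest of the class. Sp-alx had 7 and 12 reads, Sp-Pitx3 and Sp-Pax4l each had 7 and 4, a further Sp-Pax6 model had 1 and 4, and Sp-Alx1, named for the regulator of skeletogenic fate, had 2 and 7. The model named Sp-Pax1-9 has an identifier outside the WHL22 set and was not counted, and it had 1 and 0 reads.

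All 5 TALE models were above the floor and lay at or below the all-model median, with a median relative log2 ratio of -0.33, and none met the size rule. Sp-Tgif (WHL22.614286.0), a TALE repressor gene, stood at 4214.7 normalized units in the control and 3118.7 in the SoxC-labelled library, a ratio of 0.740 (0.686 to 0.798). It was the only TALE model with an interval wholly below the all-model median ratio. Sp-IrxA (WHL22.651130.0), an Iroquois gene of the aboral ectoderm, stood at 12609.8 and 10889.9, a ratio of 0.864 (0.828 to 0.900), with an interval that included the all-model median ratio. Sp-IrxB had 131 and 94 reads, a ratio of 0.689 (0.523 to 0.905), and the ratio of Sp-IrxA over Sp-IrxB was 1.25 (0.950 to 1.66), which does not separate these Iroquois genes. The Hox partner genes were thinly covered: Sp-Pbx had 16 and 8 reads and a ratio of 0.480 (0.178 to 1.19), and Sp-Meis 10 and 7 reads and a ratio of 0.673 (0.217 to 1.96).

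Sp-Six3 (WHL22.121654.0), a regulator at the head of the anterior neuroectoderm network, stood at 3912.9 and 3602.0 normalized units, a ratio of 0.921 (0.855 to 0.991). This ratio did not differ from the all-model median beyond counting error. Sp-SIX4, of the same sine oculis class, had 1 and 0 reads. Sp-Lim1 (WHL22.720614.0), a LIM homeobox gene of the oral ectoderm and endoderm, stood at 1588.5 and 1223.6, a ratio of 0.770 (0.682 to 0.870). Sp-Hnf1 had 1 read in each library, and the ciliary band gene Sp-hnf6 was blank, as were Sp-Hnf1aL, Sp-Pitx1 and a further Sp-Pitx3 model. The name pattern also took in 2 models that are not patterning genes. Sp-Bard1l, named for a partner of the repair protein BRCA1, had 102 and 101 reads and a ratio of 0.951 (0.715 to 1.27), and Sp-Hox-only, named for a small homeodomain protein that does not bind DNA in mouse, had 63 and 56 reads and a ratio of 0.854 (0.585 to 1.24).

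**Figure D3:**
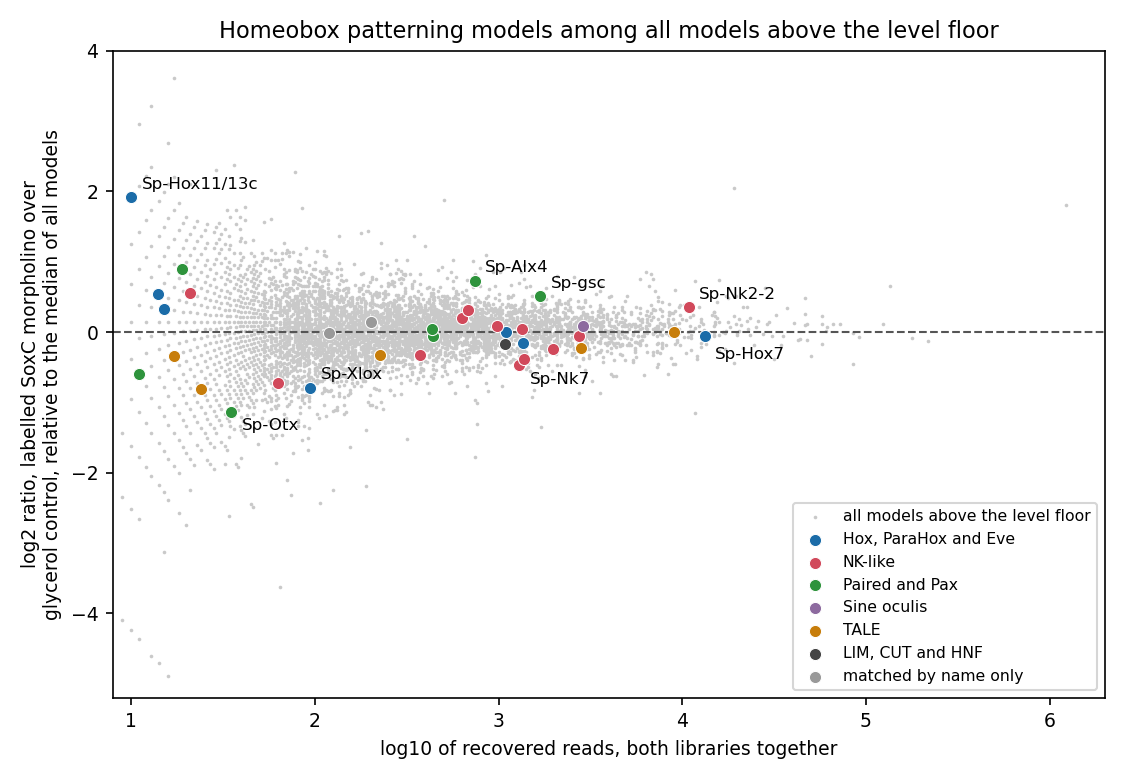
Log2 ratio relative to the all-model median against the log10 of recovered reads in both libraries, for all models above the level floor (grey) and 36 homeobox patterning models (coloured by class). The coloured points lie within the grey cloud, which widens toward few reads; Sp-Alx4 at 0.73 and Sp-Nk7 at -0.47 bound the models with 100 reads or more.

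In the endoderm and hindgut list, 2 of 5 models above the floor were lower by the size rule (Sp-Otx and Sp-Xlox), beside 4.67% of all models. With the all-model median set to 0, 1 was lower (Sp-Otx, from 25 and 10 reads), beside 2.35% of all models. All 5 were at or below the all-model median, from -1.13 to 0.00. The ratio of Sp-Hox11/13b over Sp-Xlox was 1.74 (1.10 to 2.81), while Sp-Hox11/13b and Sp-eve were not separated, at 1.12 (0.950 to 1.32). These pairs and those in the territory lists below were chosen after their values were seen, which the intervals do not allow for. Of 6 other regulators listed for the endoderm, 1 was lower by the size rule. It was the POU domain gene Sp-Brn1-2-4, itself a homeobox gene that also stands in the neuron list, with a ratio of 0.252 (0.210 to 0.301). The forkhead gene Sp-FoxA was at a relative log2 value of 0.08, with an interval just above the all-model median, and the T-box gene Sp-Bra at 0.17, with an interval that included it. The GATA factor gene Sp-Gatae was at -0.37, with an interval below it. The zinc finger genes Blimp1, from 22 and 14 reads, and Sp-krl, from 30 and 23, were at -0.48 and -0.23, with intervals that included it.

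In the oral ectoderm list, none of 4 models met the size rule. Sp-gsc lay above the all-model median, and Sp-Nk1 below it. The ratio of Sp-gsc over Sp-Nk1 was 1.86 (1.61 to 2.16), and that of Sp-gsc over Sp-Lim1 was 1.60 (1.37 to 1.88). Other oral regulators did not meet the size rule either. Relative log2 values were 0.34 for Sp-Nodal, the signal that sets the oral side, 0.51 for its inhibitor gene Sp-Lefty, 0.90 for Sp-BMP2/4 from 36 and 61 reads, and 0.25 for Sp-chordin, a BMP antagonist gene. The intervals of these 4 lay above the all-model median, as did that of Sp-gsc. Among all models above the floor 12.4% had such intervals, and 20.3% among those of 100 reads or more. The 6 other oral regulators had a median of 780 reads, and all models above the floor 108. The difference from these shares was not tested. The main Sp-deadringer model lay below it at -0.39 and Sp-FoxG included it at -0.12.

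The 5 aboral ectoderm models had a median relative log2 ratio of 0.00, and relative values from -0.06 to 0.35. Sp-Nk2-2 was the highest, with a ratio over Sp-Hox7 of 1.33 (1.27 to 1.40) and over Sp-IrxA of 1.28 (1.21 to 1.36). Among other aboral regulators, the T-box gene Sp-Tbx2-3 was at -0.03 and the Krüppel-like gene Sp-klf4 at 0.00, and Sp-Tbx6, from 21 and 12 reads, was at -0.63. The intervals of these 3 included the median.

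In the anterior neuroectoderm list, 1 of 4 models was lower by the size rule, beside 4.67% of all models. It was Sp-Otx, which stands in several lists. Sp-Six3 and Sp-Nkx2-1 were separated by a ratio of 1.26 (1.12 to 1.41), with Sp-Nkx2-1 the lower. The other regulators of this territory were Sp-FoxQ2 at a relative log2 value of -0.23, Sp-fez at -0.37, Sp-sFRP1/5 at -0.17 and Sp-Dkk-3 at 0.20. None met the size rule, and the intervals of the first 3 lay below the all-model median. Such intervals were found for 10.2% of all models above the floor, and 14.3% of those of 100 reads or more. The difference was not tested.

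Of 4 mesoderm models above the floor, none met the size rule, and Sp-Alx4 alone had an interval above the all-model median. Among other mesodermal regulators, the pigment cell gene Sp-gcm was at 0.52, the blastocoelar cell gene Sp-Scl at 0.86 and Sp-Ets1-2 at 0.39. Each of these had an interval above the median, while Sp-Tbr was at -0.62 with an interval below it. Among all models of 100 reads or more, 20.3% had intervals above the median and 14.3% below it. The difference was not tested. Of the 24 other regulators measured over all 5 territories, 1 was lower (Sp-Brn1-2-4) and none was higher by the size rule. Over all models the shares were 4.67% lower and 0.658% higher.

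**Figure D4:**
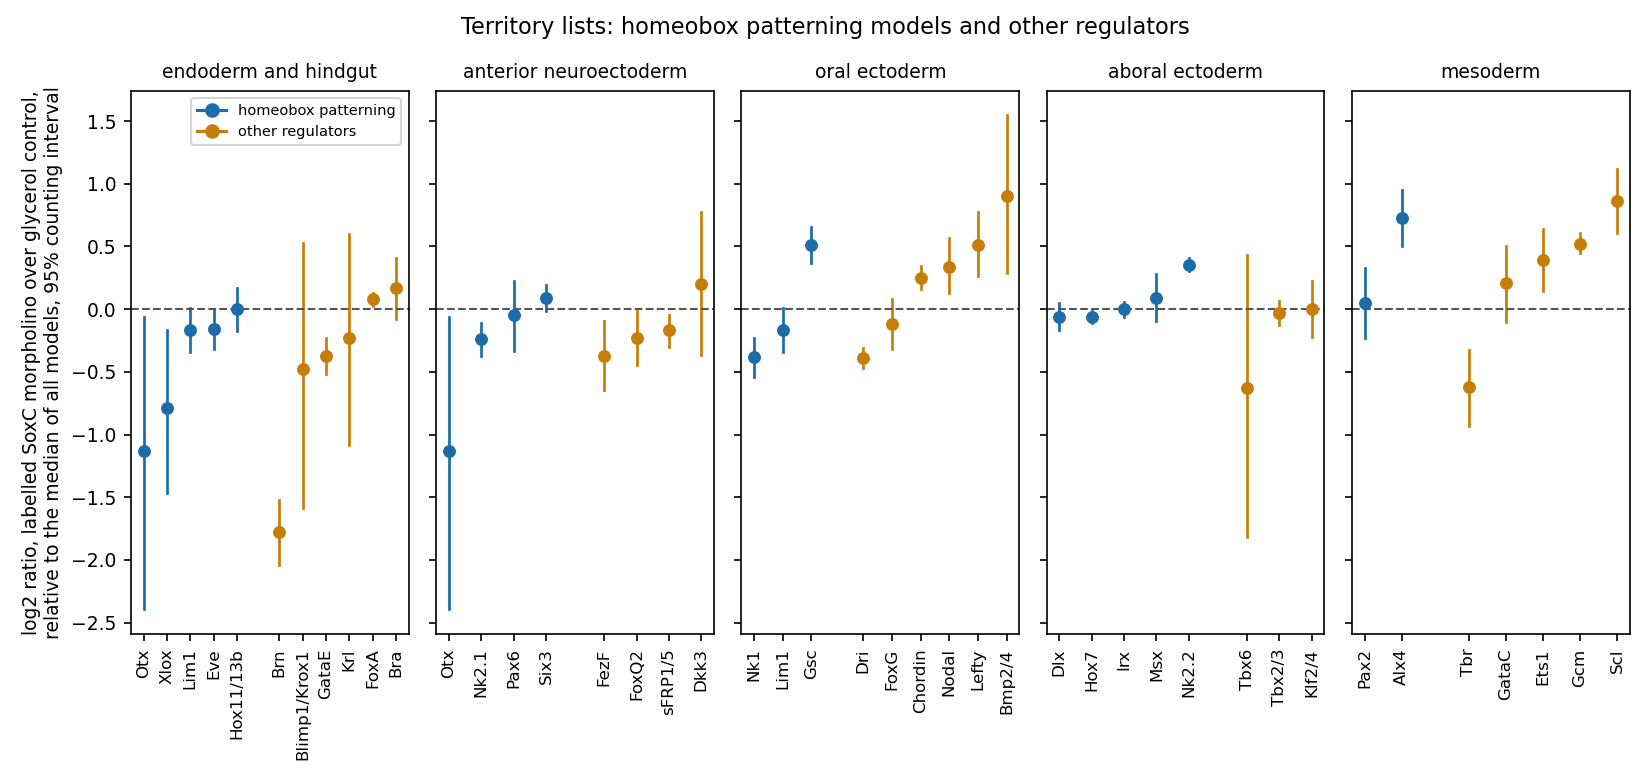
Log2 ratio relative to the all-model median, with 95% counting intervals, for the homeobox patterning models reported (blue) and other regulators (orange) of 5 territories; entries are named as in the lists, and some stand in several. Within the oral ectoderm Gsc (0.51) and Nk1 (-0.38) lie on opposite sides of the median, and in the mesoderm Alx4 (0.73) lies above it.

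Homeobox genes of neuron subtypes, which were kept out of the set, gave a different count. Of 14 above the floor, 5 were lower by the size rule and none was higher, beside 2 of 38 homeobox patterning models and 4.67% of all models. The 5 were Sp-Otp, Sp-Nkx6-1, Sp-Brn1-2-4, Sp-Hb9 and Sp-lhx2, the last named after its value was seen. Their ratios were 0.168, 0.192, 0.252, 0.278 and 0.413. With the all-model median set to 0 the count was 4, since Sp-Nkx6-1, from 10 and 2 reads with an interval of 0.0205 to 0.902, no longer met the rule. Among those with at least 100 reads, 2 of 8 neuron subtype models were lower and 0 of 25 patterning models were, beside 1.36% of all models of that coverage. That list and the separation of the groups were drawn up with these values known, so the counts describe the choice as well as the data, and their difference was not tested.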

How the data were processed

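Whole-embryo RNA was sequenced from 1 library per group. The deposited value is a normalized signal per transcript model, and how the authors counted and normalized reads, and on which genome build, is not given in the sources used here. Per the submitters' processing notes, CASAVA 1.8 and Bowtie were used. Within a library the deposited signal moved in whole steps, of 2.65 for the control and 2.54 for the SoxC-labelled library, which gave whole reads within 0.1 for 99.969% of models in each. Each of 24565 rows names a model and a gene prediction, and repeated models were used once, leaving 17269. Of these, 4326 were blank, and 3 of the homeobox models carry more than 1 name. Reads shared between related models, or with antisense genes, cannot be separated.

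Ratios used the deposited scaling. Their intervals are exact Clopper-Pearson intervals of the read counts, and ratios between models have exact conditional intervals (SciPy 1.17.1, Python 3.11.15). Whether reads are independent molecules is unknown. The procedure was tested on simulated data. The plan covered counts and normalized values, and recovered reads were used with the deposited scaling. Named models met the size rule, had an interval excluding the median of all models, were among the 15 with most reads or were the extremes of a class or territory, 29 of 47 in all. Those with values outside this rule, and the 15 pairs of models compared, of which 10 had an interval excluding 1, were chosen after their values were seen. The members and lists were chosen with earlier results of these data known. Of the 47 models, 10 have a RefSeq symbol in Spur_5.0, whose build may differ, so no positions are given. Alternatives were other scalings, level floors, folds, pseudocounts and model sets. Values of 2 models that count toward the totals are not reported here.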

Additional observations from a re-analysis of the deposited data

How the results depend on the processing

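The count of homeobox models lower by the size rule was small and changed with most settings. Against 2, it was 5 with a 1.5-fold limit (adding Sp-Gbx, Sp-Nk1 and Sp-Nk7, beside 9.87% of all models), 4 with the fold alone, and 0 with a 3-fold limit. It was 1 under the median of ratios, the upper quartile and totals without the most abundant model, where Sp-Xlox no longer reached 2-fold, and with a pseudocount of 2 reads. It was also 1 with a floor of 5 CPM, which Sp-Otx does not reach, and with a binomial test, exact, of the recovered reads (Benjamini-Hochberg adjusted), which kept Sp-Xlox. That test compares these libraries, not the conditions, and called 247 models lower and 28 higher in all. Total reads, no floor, a pseudocount of 0.1 reads, models with a single name and leaving out Sp-Bard1l and Sp-Hox-only gave 2. The count of higher models was 1 with the fold alone (Sp-Hox11/13c) and 0 in the other settings. The relative median was -0.04. The medians of the members' own interval bounds were -0.34 and 0.30, which describe the interval of a typical model and are not an interval of that median. Scalings and fold limits cannot move the relative median, since the all-model median is subtracted. Under other floors, pseudocounts and model sets it ran from -0.06 to -0.01. As deposited, without subtraction, the median was -0.24, and under total reads -0.30. Of 367 log2 ratios of named models under other settings, 42 left their counting interval, all under another scaling. Of the called values, 0 changed sign, but Sp-Otx and Sp-Xlox lie further from 0 than the scalings move a value. Some values near 0 did change sign. Under the median of ratios Sp-Emx went from -0.17 to 0.04 and Sp-Six3 from -0.12 to 0.09. Leaving out the most abundant model, the binomial test and leaving out the 2 models matched by name only were added after the data were seen. No paired analysis was possible because there is only 1 library on each side. Depth limits the 13 models above the floor that had 10 to 94 reads and the 9 below it, which had 1 to 9.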
